A study of Mus musculus with 11 samples.

Results

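The genes described here are 8 enzymes of mouse serine, folate one-carbon and asparagine synthesis, namely Phgdh, Psat1, Psph, Shmt1, Shmt2, Mthfd2, Mthfd1l and Asns, among 12565 genes tested. They were selected by symbol for how they moved in earlier results on these same arrays, in the steps from 8 h to 12 h and in the difference between the fatty acids. Their values in those comparisons are therefore given as a description and not as tests. Counts of them past a p threshold there describe these arrays, and nothing is read from those counts. The arrays hold RNA of 3T3-L1 cells, an established mouse line of fibroblast-like preadipocytes that can be induced to become fat cells. The cultures received t10c12 CLA (conjugated linoleic acid, a positional and geometric isomer of linoleic acid) for 4 h, 8 h or 12 h, with 2 arrays at each time. The control cultures received LA, linoleic acid itself, with 1 array at 4 h and 2 arrays each at 8 h and 12 h. The labels give no dose and no untreated culture, so every contrast between fatty acids sets CLA against LA, and both groups received a fatty acid. The design text implies 1 more LA array at 4 h, not analysed here. The replicates are labelled biological, but no label says that separate cultures were used, so errors and p-values cover no more than the spread among these arrays, which may be technical.

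Serine is made in cells from the glycolytic intermediate 3-phosphoglycerate in 3 steps. Phgdh (phosphoglycerate dehydrogenase) opens the chain, Psat1 (phosphoserine aminotransferase) adds the amino group, and Psph (phosphoserine phosphatase) removes the phosphate. The serine hydroxymethyltransferases Shmt1, in the cytosol, and Shmt2, in mitochondria, split serine into glycine and a folate-bound one-carbon unit. Mthfd2 and Mthfd1l oxidise that unit in mitochondria and release it as formate, which the cytosol uses for purine and thymidylate synthesis. Asns (asparagine synthetase) makes asparagine from aspartate with nitrogen from glutamine. Several of these genes are textbook targets of ATF4, a transcription factor that is translated when amino acids run short or the endoplasmic reticulum is stressed.

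ATF4 binds, with C/EBP partners, composite elements that read TGATGNAA at their core. The RefSeq promoter windows of the assembly GRCm38.p6 hold 9 windows for the 8 genes, each of 300 bases. The core was searched on both strands, and was found in 1 of the 8 genes, Asns, against 3.97% of all 32851 windows. In Asns it lay on the gene's own strand at position -23 from the gene start. This promoter is shown because it is the one with the core, which stands in capitals below. The Mthfd2 promoter is shown because Mthfd2 had the clearest change in a comparison that did not choose the genes. Its capitals mark CCAAT, read on either strand, and this promoter holds no match to the ATF4 core.
Asns promoter, chr6:7693160-7693459, minus strand: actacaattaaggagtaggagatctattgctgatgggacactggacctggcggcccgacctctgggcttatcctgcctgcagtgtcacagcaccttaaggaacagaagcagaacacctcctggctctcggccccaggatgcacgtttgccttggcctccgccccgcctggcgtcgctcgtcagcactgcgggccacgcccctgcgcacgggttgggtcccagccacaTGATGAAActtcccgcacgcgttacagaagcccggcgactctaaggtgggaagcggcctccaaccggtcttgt
Mthfd2 promoter, chr6:83317555-83317854, minus strand: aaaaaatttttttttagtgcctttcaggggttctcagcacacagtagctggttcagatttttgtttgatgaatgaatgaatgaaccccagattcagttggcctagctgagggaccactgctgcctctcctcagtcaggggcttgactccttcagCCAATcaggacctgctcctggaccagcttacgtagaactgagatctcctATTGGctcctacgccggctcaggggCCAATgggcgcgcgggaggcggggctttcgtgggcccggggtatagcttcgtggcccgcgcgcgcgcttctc
CCAAT on either strand was found in 5 of the 8 genes, Phgdh, Psat1, Psph, Shmt1 and Mthfd2, against 37.4% of all windows. The E-box CACGTG, the site of MYC and related factors, was in 0 of the 8 genes and in 7.15% of all windows. A match in such a window is a description of its letters and shows no binding.

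The values below are probe set intensities on a linear scale after quantile normalisation, and the brightest probe set annotated to a gene alone stands for that gene. All 8 genes passed the filter on dim probe sets, and so did 19 of their 20 probe sets. Differences are on the scale log2(intensity + 1.84), as estimate ± standard error from 1 limma fit over all 11 arrays. This scale understates the change of dim genes with values above 0. A value below 0 is set to 0 first, and the size of its difference then depends on the offset. A gene is called where its Benjamini-Hochberg adjusted p over all 12565 genes is under 0.05. Of the preadipocyte and fibroblast markers, 9 of 10 lay above the level of unspiked control probe sets (8.89) on all arrays, with Cd34 at that level. Of the 5 measured adipocyte markers 2 lay above it on all arrays, with Cidec and Lep at it. None of 4 endothelial markers lay above it on all arrays. Of 6 macrophage markers 3 did, with Ptprc and Itgam at background. The summed macrophage markers reached 1246 on the LA array of 4 h, against 188 to 491 on the other arrays. Csf1r alone made up 1171 of that sum, and none of the other 5 markers was highest on that array. The GAPDH 3' to 5' signal ratio ran from 0.877 to 1.01 in CLA and from 0.978 to 1.18 in LA. The part of these differences in the results was not tested.

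**Figure D1:**
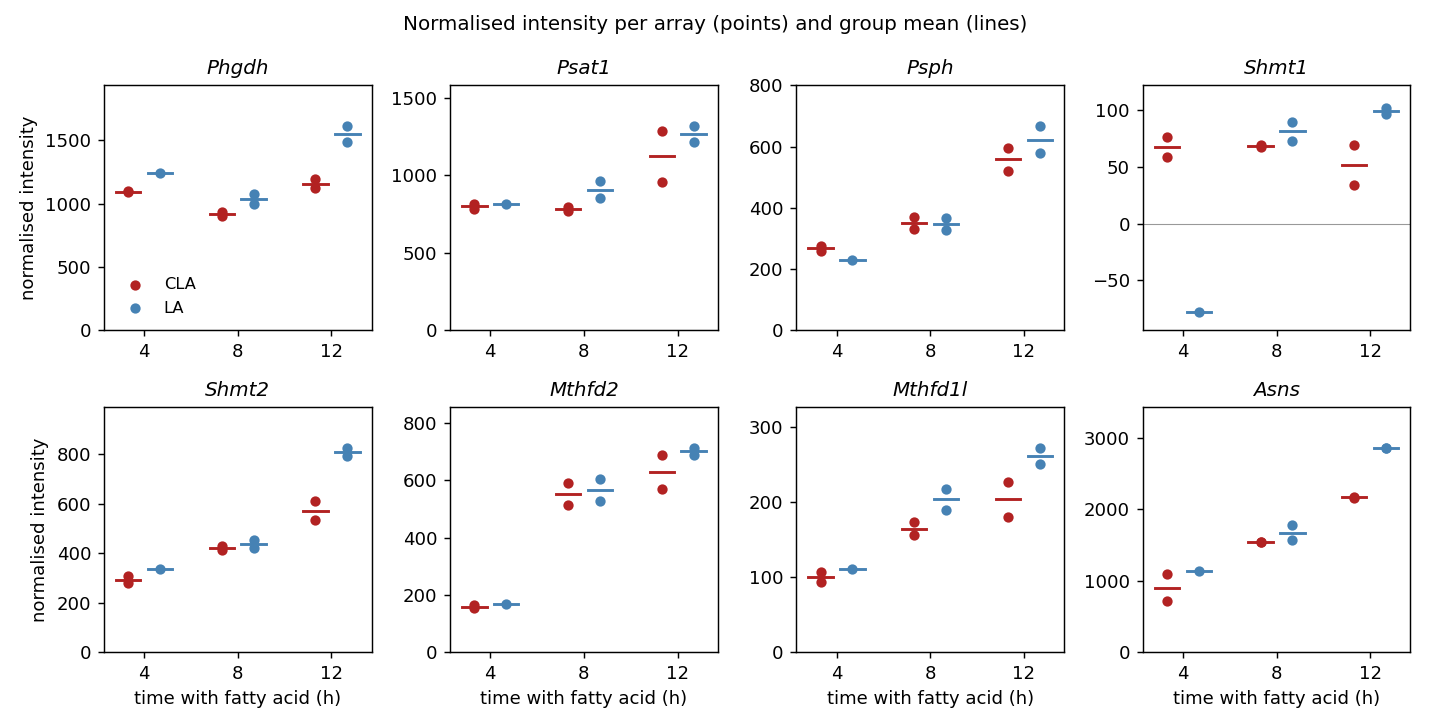
Normalised intensity (linear, arbitrary units) of the 8 genes against time in hours, CLA in red and LA in blue; points are arrays and lines are group means. LA at 12 h has the highest group mean for all 8 genes, and the LA array of 4 h lies below 0 for Shmt1 (-78.3).

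In the serine chain, Phgdh was lowest at 8 h in both fatty acids. In RNA of whole cultures a change in the share of cells of a kind and a change in RNA per cell cannot be told apart. Phgdh intensities in CLA were 1090.2 and 1097 at 4 h, 900.0 and 931 at 8 h, and 1124 and 1194 at 12 h. In LA they were 1242 at 4 h, 1078 and 998 at 8 h, and 1489 and 1615 at 12 h. Within each fatty acid the arrays of 8 h were the lowest, with no overlap with 4 h or 12 h. The order of the group means was LA 12 h, LA 4 h, CLA 12 h, CLA 4 h, LA 8 h and CLA 8 h, and no neighbours in that order overlapped.

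Psat1 was highest at 12 h in both fatty acids. The CLA arrays read 782 and 816 at 4 h, 766 and 793 at 8 h, and 956 and 1285 at 12 h. The LA arrays read 815 at 4 h, 959 and 854 at 8 h, and 1213 and 1318 at 12 h. At 12 h the fatty acids overlapped, and the 2 CLA arrays of 12 h were the widest pair for this gene, 1120.5 ± 233 (SD, n = 2).

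Psph was the serine gene with the largest ratio of highest to lowest group mean. In CLA it had 259 and 276 at 4 h, 369 and 332 at 8 h, and 596 and 520.0 at 12 h. In LA it had 228 at 4 h, 367 and 326 at 8 h, and 668 and 577 at 12 h. The highest group mean, LA 12 h, was 2.73 times the lowest, LA 4 h, and the fatty acids overlapped at 8 h and at 12 h.

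Among the one-carbon enzymes, Shmt2 was higher at each later time in both fatty acids. Its intensities in CLA were 279 and 307 at 4 h, 411 and 431 at 8 h, and 611 and 532 at 12 h. In LA they were 334 at 4 h, 452 and 419.5 at 8 h, and 825 and 793 at 12 h. The fatty acids overlapped at 8 h and stood apart at 12 h, with CLA the lower.

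Mthfd2 is the mitochondrial methylene-tetrahydrofolate dehydrogenase. It had the largest ratio of highest to lowest group mean of the 7 genes measured above background in every group. The CLA arrays read 165 and 154 at 4 h, 514 and 589.6 at 8 h, and 569 and 689 at 12 h. The LA arrays read 168 at 4 h, 605 and 529 at 8 h, and 713 and 688 at 12 h. The arrays of 4 h stood far below all later ones, while the 4 groups of 8 h and 12 h overlapped each neighbour in the order of their means. The highest group mean, LA 12 h, was 4.39 times the lowest, CLA 4 h.

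Mthfd1l, the formate-releasing enzyme of mitochondria, followed with smaller steps. In CLA it had 93.0 and 107 at 4 h, 157 and 173 at 8 h, and 180.4 and 227 at 12 h. In LA it had 111 at 4 h, 217 and 190.1 at 8 h, and 251 and 272 at 12 h. Mean levels of CLA at 12 h and LA at 8 h did not differ beyond their spread, 204 ± 32.8 and 204 ± 19.1 (SD, n = 2 each).

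Shmt1 was read at low intensities in all groups. Its intensities in CLA were 58.2 and 76.5 at 4 h, 67.7 and 68.8 at 8 h, and 34.2 and 69.2 at 12 h. In LA they were -78.3 at 4 h, 89.6 and 72.8 at 8 h, and 102 and 96.6 at 12 h. The single LA value of 4 h is below 0 and so holds only an upper bound. The CLA arrays of 4 h, with a mean of 67.4, were at least 7.51-fold higher than the LA array set to the background level. The authors' deposited table, whose ratio is taken as CLA over LA because it correlates positively with the differences computed here, gives a log2 ratio of -0.09 for this probe set at 4 h. That ratio comes from the authors' own processing and may include the LA array of 4 h not analysed here. The size of the difference computed here at 4 h depends on the offset and is not a measurement. The other 2 probe sets of Shmt1 that passed the filter read 68.9 and 48.2 on the same LA array, beside 60.5 and 86.2 on the CLA arrays of 4 h for the brighter of them and 56.6 and 57.3 for the other.

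Asns, the asparagine enzyme, was higher at each later time. The CLA arrays read 715 and 1094 at 4 h, 1543.0 and 1542.6 at 8 h, and 2161 and 2173 at 12 h. The LA arrays read 1139.6 at 4 h, 1773 and 1575 at 8 h, and 2855 and 2858 at 12 h. No neighbours in the order of the group means overlapped, LA 12 h first and CLA 4 h last, a ratio of 3.16. The second Asns probe set did not repeat the low CLA replicate of 4 h: it read 1098 and 1072 in CLA and 1095 in LA at that time.

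The step from 4 h to 8 h was not among the comparisons that chose the genes. Its arrays of both 4 h and 8 h entered those comparisons, so its p-values are not independent of the choice. In CLA, 4 of the 8 genes rose over this step by limma's adjusted p, against 7.2% of all genes called higher, and 0 fell, against 5.46% of all genes called lower. At an unadjusted p under 0.05 the count was 6 of 8 in either direction, against 3293 of all 12565 genes. Mthfd2 rose by 1.78 ± 0.12 on the log2 scale (3.43-fold, limma adjusted p = 1.04e-05) and was higher at 8 h in both arrays. Asns rose by 0.80 ± 0.15 (adjusted p = 0.00458 in limma), a value that was 0.40 on its second probe set. Over the other processing settings the Asns difference ran from 0.50 to 1.11, with limma adjusted p up to 0.0642 (with no filter on dim probe sets), and it was past the threshold in 22 of 24. Mthfd1l rose by 0.71 ± 0.15 and Shmt2 by 0.52 ± 0.11 (limma adjusted p = 0.00947 and 0.00785). Without replicate 1 of CLA at 4 h both lost the call, at adjusted p = 0.0971 for Mthfd1l and 0.0915 for Shmt2. Mthfd1l was also not called without replicate 2 of CLA at 8 h (adjusted p = 0.0516 in limma).

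The serine chain itself did not pass in CLA over the same step. Psph differed by 0.39 ± 0.12 (limma adjusted p = 0.0638) and Phgdh by -0.26 ± 0.08 (limma adjusted p = 0.0592), and both had arrays that did not overlap. Psat1 differed by -0.04 ± 0.12, with a 95% interval from -0.31 to 0.24. Shmt1 differed by 0.03 ± 0.29, with an interval from -0.61 to 0.67. Arrays of 8 h lay wholly above those of 4 h for 5 of the 8 genes in CLA, as for 28.9% of all genes.

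In LA, where 4 h is a single array assumed to vary like the other groups, 4 of the 8 genes were called higher from 4 h to 8 h, against 7.18% of all genes, and 0 lower, against 4.67%. Mthfd2 rose by 1.74 ± 0.15 (3.33-fold, limma adjusted p = 6.99e-05), Mthfd1l by 0.86 ± 0.18 (adjusted p = 0.0129) and Psph by 0.60 ± 0.15 (adjusted p = 0.0267). The fourth call, Shmt1, rests on the value below 0 at 4 h. LA arrays of 8 h were at least 9.09-fold higher than the LA array of 4 h set to the background level (limma adjusted p = 1.58e-05), while its other passing probe sets gave log2 differences of -0.23 and 1.15. Asns differed by 0.55 ± 0.18 (limma adjusted p = 0.0751) and Shmt2 by 0.38 ± 0.13 (limma adjusted p = 0.0854). Phgdh differed by -0.26 ± 0.10 (limma adjusted p = 0.113) and Psat1 by 0.15 ± 0.15 (limma adjusted p = 0.592). Without replicate 1 of LA at 8 h, Mthfd1l (adjusted p = 0.0901) and Psph (adjusted p = 0.153) were not called in limma, and without replicate 2 of LA at 8 h Psph was not (adjusted p = 0.0628). Arrays did not overlap, with 8 h the higher, for 7 of the 8 genes in LA, as for 44.7% of all genes. The median of the 8 genes was 0.45 in CLA and 0.57 in LA, and that of all genes 0.03 in both.

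**Figure D2:**
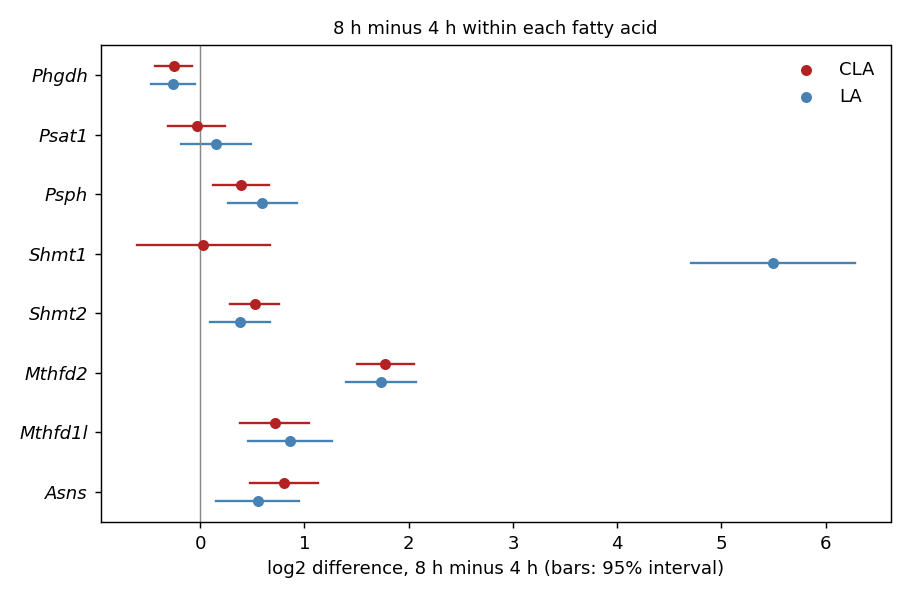
Log2 difference, 8 h minus 4 h, of each gene in CLA (red, upper) and LA (blue, lower), with 95% intervals from the fit over all arrays. Mthfd2 is near 1.8 in both fatty acids, Phgdh is at -0.26 in both, and the LA point of Shmt1 has no measured size, because its array of 4 h lies below 0.

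The step from 4 h to 8 h can also be set side by side in the fatty acids. For Mthfd2 its log2 size differed by 0.04, CLA minus LA, with a 95% interval from -0.39 to 0.47. For Phgdh it differed by 0.0032 (interval -0.27 to 0.28) and for Asns by 0.25 (interval -0.27 to 0.76). These intervals do not show that the fatty acids act alike.

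From 8 h to 12 h the values that follow chose the genes and are given as such. In LA the log2 differences ran from 0.29 for Shmt1 to 0.89 for Shmt2, with a median of 0.53, against 0.13 over all genes. Psph differed by 0.84 ± 0.12, Asns by 0.77 ± 0.15, Phgdh by 0.58 ± 0.08 and Psat1 by 0.48 ± 0.12. Mthfd1l stood at 0.36 ± 0.15 and Mthfd2 at 0.31 ± 0.12, the gene that had moved most in the step before. Arrays of 12 h lay above those of 8 h for all 8 genes, as for 43.6% of all genes, and 5 were past the threshold, against 10.8% of all genes called higher and 11.2% called lower.

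In CLA the median over the same step was 0.39, against 0.02 over all genes. Psph differed by 0.67 ± 0.12, Psat1 by 0.51 ± 0.12, Asns by 0.49 ± 0.15, Shmt2 by 0.44 ± 0.11 and Phgdh by 0.34 ± 0.08. Mthfd1l stood at 0.29 ± 0.15, Mthfd2 at 0.18 ± 0.12 and Shmt1 at -0.47 ± 0.29, the last with overlapping arrays. Arrays did not overlap, with 12 h the higher, for 6 of the 8 genes, as for 18.9% of all genes. Psph alone was past the threshold, against 0.143% of all genes called higher and 0.255% called lower, and it lost the call in 9 of the 11 fits that each left out 1 array.

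The other probe sets repeated the direction of this step for most genes that had any. Psph and Mthfd1l had none. The 3 further Phgdh probe sets gave 0.32 to 0.37 in CLA and 0.65 to 0.78 in LA. The 3 further Shmt2 probe sets gave 0.52 to 0.59 in CLA and 0.75 to 0.90 in LA. The second probe sets gave 0.51 in CLA and 0.66 in LA for Asns, 0.31 in CLA and 0.32 in LA for Mthfd2, and 0.74 in CLA and 0.40 in LA for Psat1. Shmt1 was the exception. Its other probe sets that passed the filter gave -0.67 and 0.25 in CLA and -0.92 and 0.15 in LA. The one that did not pass gave 0.31 in CLA and 0.35 in LA. The 4 Phgdh probe sets, 3 of the 4 of Shmt2 and the brighter one of Asns are of kinds whose oligos can match other transcripts too. So are the brightest probe sets of Psat1 and Shmt1. All of these can hold signal of near-identical sequences. A pair of further Phgdh probe sets that also name a predicted gene (Gm6756 or Gm8096) were left out.

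CLA minus LA, compared at matched times, lay between -0.37 and 0.23 at 4 h for the 7 genes other than Shmt1, between -0.30 and 0.02 at 8 h for all 8, and was negative for all 8 at 12 h on the quantile scale. At 12 h the log2 difference was -0.997 ± 0.29 for Shmt1, -0.50 ± 0.11 for Shmt2, -0.42 ± 0.08 for Phgdh, -0.40 ± 0.15 for Asns and -0.37 ± 0.15 for Mthfd1l. In these 5 genes the CLA arrays lay wholly below the LA arrays, as for 42.2% of all genes. The Shmt1 value rests on CLA arrays of 34.2 and 69.2. It ran from -1.48 to -0.46 over the other processing settings, and was past the threshold in 12 of 24 of them. The other Shmt1 probe sets gave -0.33 and -1.02, and -0.04 for the one that did not pass the filter. Psat1 (-0.19 ± 0.12), Mthfd2 (-0.16 ± 0.12) and Psph (-0.16 ± 0.12) overlapped. Phgdh, Shmt1 and Shmt2 were past the threshold, 3 of 8, against 9.12% of all genes called lower and 9.32% called higher in CLA. The median of the 8 genes was -0.38 and that of all genes -0.15. On the intensities as deposited, with no scaling, the median of all genes moved to 0.27 and that of the 8 genes to -0.01, so the sign depends on the scaling: Psph, Mthfd2, Mthfd1l and Psat1 were then at 0.23, 0.22, 0.12 and 0.11. The median of the 8 genes was below that of all genes on both scales. In the authors' deposited table the log2 ratio at 12 h had the same sign for all 8 genes. Its median was -0.24 if the ratio is CLA over LA, as its correlation with the differences computed here gives it, and 0.24 if it runs the other way.

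At 4 h the median was -0.12, against -0.03 over all genes. CLA lay below the LA array for 5 of the 8 genes, as for 41.1% of all genes, and above it for Psph and Shmt1, as for 34.6% of all genes. Shmt1, through its value below 0, was the single gene past the threshold, against 0.127% of all genes called higher and 0.167% called lower. At 8 h the median was -0.15, against -0.04 over all genes, and the CLA arrays lay wholly below the LA arrays for 5 genes, as for 21.2% of all genes. None of the 8 was past limma's threshold at 8 h, as for all genes (0% called higher and 0% called lower), where 498 had an unadjusted p under 0.05, 1 of them among the 8. The 95% interval at 8 h ran from -0.31 to 0.23 for Mthfd2 and from -0.25 to 0.29 for Psph.

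**Figure D3:**
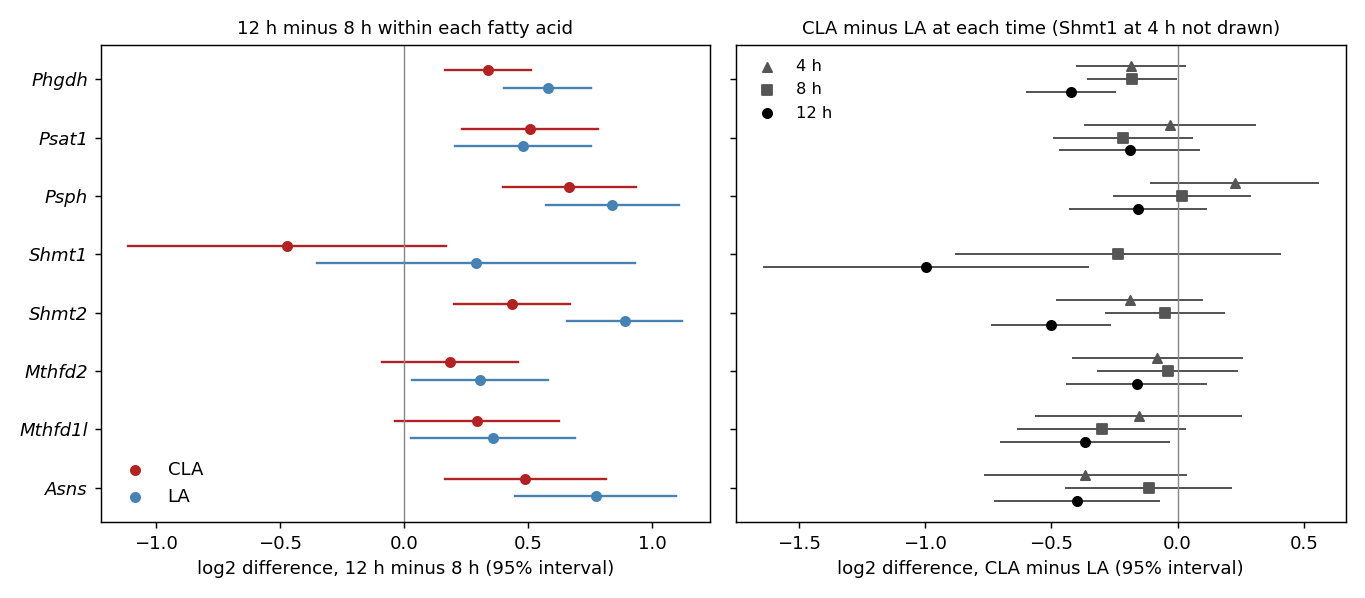
Left, log2 difference, 12 h minus 8 h, in CLA (red, upper) and LA (blue, lower); right, CLA minus LA at 4 h, 8 h and 12 h; bars are 95% intervals. LA exceeds CLA in the left panel for 7 of the 8 genes, while over all genes CLA exceeds LA for 40.6%. The 12 h points in the right panel are all below 0, from -0.997 for Shmt1 to -0.16 for Psph.

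The step from 8 h to 12 h was smaller in CLA than in LA for 7 of the 8 genes, Psat1 being the other. Over all genes the log2 step was higher in CLA for 40.6%. The difference between the steps, CLA minus LA, was -0.76 ± 0.41 for Shmt1, -0.45 ± 0.15 for Shmt2, -0.28 ± 0.21 for Asns and -0.24 ± 0.11 for Phgdh. For Psat1 it was 0.03 ± 0.18. The other Shmt1 probe sets that passed the filter gave 0.10 and 0.25, and the one that did not gave -0.04. None of the 8 was past limma's threshold, against 1.11% of all genes called higher and 0.0398% called lower. At an unadjusted p under 0.05 there was 1 of the 8, beside 1853 of all 12565 genes. The median was -0.21, against -0.09 over all genes, and 0.04, against 0.21 over all genes, on the intensities as deposited.

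Around these enzymes, 72 measured genes of neighbouring pathways were tested, on lists drawn up with earlier results of these arrays known. The shares of all genes called, in LA from 8 h to 12 h 10.8% higher and 11.2% lower, hold for every count of that step below. From 4 h to 8 h, 18 of the 72 rose and 5 fell in CLA, and 18 rose and 2 fell in LA, against 7.2% and 5.46% of all genes in CLA and 7.18% and 4.67% in LA. From 8 h to 12 h, 1 rose and 0 fell in CLA by limma's adjusted p, against 0.143% and 0.255% of all genes. At an unadjusted p under 0.05 there were 12 in CLA, against 1282 of all 12565 genes. In LA 18 rose and 5 fell over that step. At 12 h, CLA was higher than LA for 5 and lower for 14, against 9.32% and 9.12% of all genes. At 4 h and at 8 h CLA differed from LA by limma's adjusted p in 0 of them. The shares of all genes were 0.127% higher and 0.167% lower at 4 h, and 0% in both directions at 8 h. At an unadjusted p under 0.05 there were 10 at 4 h and 7 at 8 h, against 1146 and 498 of all genes.

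Of the other folate genes, 2 of 14 rose in LA from 8 h to 12 h and 1 fell, against 10.8% of all genes higher and 11.2% lower. Their median log2 difference was 0.32, against 0.13 over all genes. Slc19a1, the reduced folate carrier, had 102 and 108 in CLA at 12 h, against 149 and 161 in LA. It rose in LA by 0.63 ± 0.15 from 8 h to 12 h (limma adjusted p = 0.0123) and differed by 0.24 ± 0.15 in CLA (limma adjusted p = 0.662). Mthfd1, the cytosolic trifunctional folate enzyme, rose in LA by 0.40 ± 0.12 (limma adjusted p = 0.038) and at 12 h CLA minus LA was -0.46 ± 0.12 (limma adjusted p = 0.0269). Mthfd2l, the close relative of Mthfd2, fell by 0.37 on the log2 scale in LA (limma adjusted p = 0.0376), and from 4 h to 8 h it differed by 0.03 in CLA and -0.16 in LA, the step in which Mthfd2 rose.

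In amino acid synthesis, 5 of 9 measured genes around aspartate, glutamate and proline rose in LA from 8 h to 12 h and none fell, with a median of 0.42, against 0.13 over all genes. Aldh18a1, which opens proline synthesis, had already risen from 4 h to 8 h, by 0.999 ± 0.08 in CLA (limma adjusted p = 2.66e-05) and 0.97 ± 0.10 in LA (limma adjusted p = 0.000199). Glul, glutamine synthetase, rose in LA by 0.71 ± 0.15 from 8 h to 12 h (limma adjusted p = 0.00722) and at 12 h CLA minus LA was -0.52 ± 0.15 (limma adjusted p = 0.0327). Got1 and Got2, the cytosolic and mitochondrial aspartate aminotransferases, rose in LA by 0.47 ± 0.12 and 0.29 ± 0.08 (limma adjusted p = 0.0213 and 0.0325). CLA minus LA at 12 h was -0.43 ± 0.08 for Got2 (limma adjusted p = 0.00708) and -0.04 ± 0.12 for Got1 (limma adjusted p = 0.832).

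Of 10 measured genes of purine synthesis and its supply, 3 rose and 1 fell in LA from 8 h to 12 h, against 10.8% of all genes higher and 11.2% lower, and their median was -0.004, against 0.13 over all genes. Gart and Atic, the enzymes of this list that use 10-formyl folate, were not among the calls (named after their values were seen), at 0.26 ± 0.12 and -0.14 ± 0.19 (limma adjusted p = 0.148 and 0.608). Pfas rose by 0.57 ± 0.15 and Adsl by 0.76 ± 0.19, and Impdh1, of guanine nucleotide synthesis, by 0.48 ± 0.15 (limma adjusted p = 0.0221, 0.0172 and 0.0448). Prps2, a phosphoribosyl pyrophosphate synthetase, fell by 0.73 on the log2 scale (limma adjusted p = 0.00132). In the methionine cycle 2 of 4 rose in LA, Ahcy by 0.46 ± 0.11 and the polyamine enzyme Odc1 by 0.33 ± 0.07 (limma adjusted p = 0.0124 and 0.00945), with a list median of 0.19. Of 9 genes of glycine cleavage and of serine or glycine use, Gcsh rose by 0.39 ± 0.08 and Dld fell by 0.97 on the log2 scale in LA (limma adjusted p = 0.00906 and 0.00793), both of them subunits of the glycine cleavage system, and the list median was 0.05.

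Among 17 regulators of the amino acid and stress response, 3 rose and 1 fell in LA from 8 h to 12 h, against 10.8% of all genes higher and 11.2% lower, with a list median of 0.10 beside 0.13 over all genes. In CLA from 4 h to 8 h, 5 rose and 2 fell, against 7.2% of all genes higher and 5.46% lower, with a list median of 0.11 beside 0.03 over all genes. Chac1, a glutathione-degrading enzyme and ATF4 target, rose with Mthfd2 from 4 h to 8 h, by 1.85 ± 0.13 in CLA and 1.61 ± 0.16 in LA (limma adjusted p = 1.18e-05 and 0.000181). In CLA Chac1 had 294 and 358 at 8 h, against 87.5 and 90.2 at 4 h. LA arrays gave 396 and 367 at 8 h, against 124 at 4 h. Nupr1, a stress-induced chromatin protein, went the other way and fell over that step, with differences of -0.69 ± 0.09 in CLA and -0.68 ± 0.12 in LA (limma adjusted p = 0.000753 and 0.00418). In LA over that step 4 of the 17 rose and 1 fell, against 7.18% of all genes higher and 4.67% lower. Atf4 itself, named after its values were seen, rose from 4 h to 8 h by 0.63 ± 0.09 in CLA and 0.52 ± 0.11 in LA (limma adjusted p = 0.00118 and 0.0143). From 8 h to 12 h Atf4 differed by 0.13 in CLA and 0.10 in LA (limma adjusted p = 0.716 and 0.481). Atf5, a transcription factor downstream of ATF4, rose in LA from 8 h to 12 h by 0.50 ± 0.12 and Eif4ebp1, a repressor of translation initiation, by 0.34 ± 0.08 (limma adjusted p = 0.015 and 0.0101).

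Of the 9 carriers, 2 rose and 1 fell in LA from 8 h to 12 h, with a median of 0.35, against 0.13 over all genes. Slc7a5, the large neutral amino acid transporter, was the single pathway gene that rose in CLA from 8 h to 12 h. It had 363 and 392 in CLA at 12 h and 237 and 246 at 8 h, a rise of 0.64 ± 0.10 (limma adjusted p = 0.0277). In LA it had 492 and 487 at 12 h and 292 and 301 at 8 h, a rise of 0.72 ± 0.10 (limma adjusted p = 0.00109). Its partner Slc3a2 rose in LA by 0.30 ± 0.07 (limma adjusted p = 0.0164) and differed by 0.11 ± 0.07 in CLA (limma adjusted p = 0.703). Slc38a2, a carrier of small neutral amino acids, fell by 0.42 on the log2 scale in LA (limma adjusted p = 0.00709) and at 12 h CLA minus LA was 0.38 ± 0.09 (limma adjusted p = 0.0138).

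**Figure D4:**
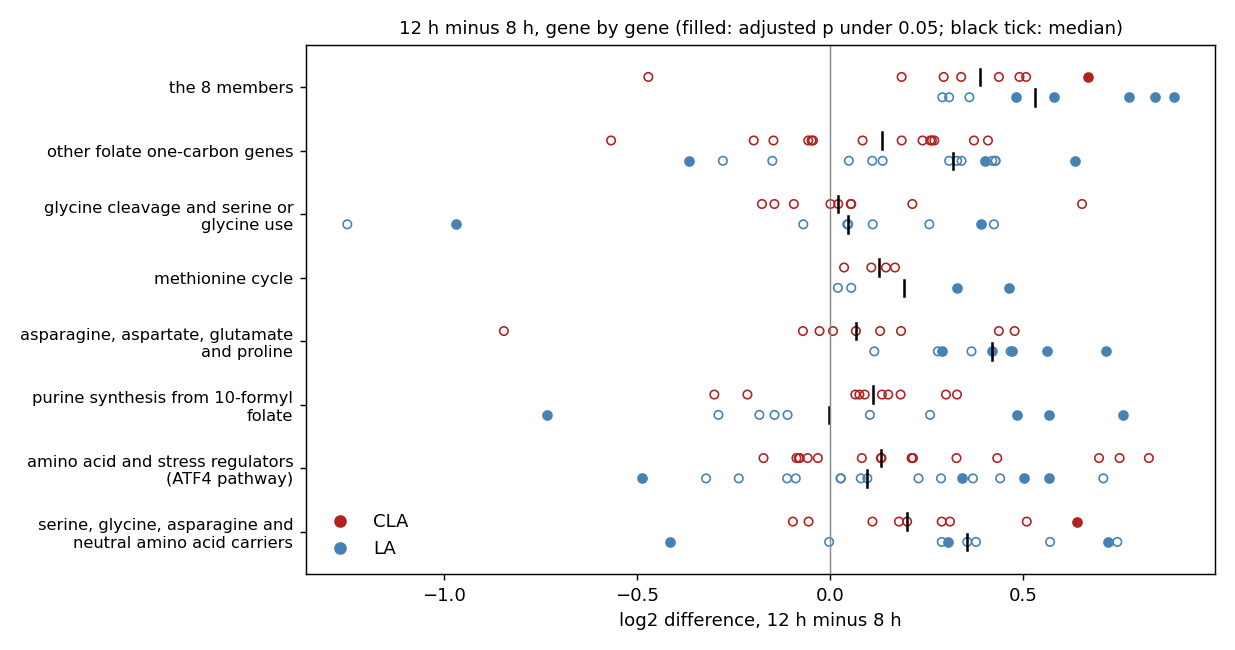
Log2 difference, 12 h minus 8 h, of each measured gene, in CLA (red, upper) and LA (blue, lower), for the 8 enzymes and the 7 neighbouring lists; filled points have an adjusted p under 0.05 and black ticks are medians. Filled red points are 2 in all, Psph and Slc7a5, and the medians of the 8 enzymes are 0.39 in CLA and 0.53 in LA.

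By the distance of their centred log2 levels from the mean course of the 8 enzymes over the 11 arrays, the nearest genes were Hhat (0.116), Acot1 (0.121), Zfp821 (0.135), Adpgk (0.136), Twf2 (0.138), Csrp2 (0.141), A930004D18Rik (0.146) and Tmcc3 (0.147), where the median over all genes was 0.542. That mean course carries the LA value of Shmt1 at 4 h below 0. Without Shmt1, a choice made after seeing the data, the nearest were Hacd1 (0.0498), Zfp862-ps, Ttc7, Amacr, Aimp2, Bysl, Copz2 and Dut (0.1003), and 0 of the 8 names were shared. Among the enzymes, Shmt2 lay nearest to the mean course of the 7 (0.114) and Mthfd2 farthest (0.491).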

How the data were processed

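Per the labels' protocols, Trizol RNA of the cultures was labelled as biotinylated cRNA for 1-colour Affymetrix arrays. The deposited value table holds 1 intensity per probe set and array on a linear scale, with 18.7% to 21.5% of values at or below 0. The sources used here do not give how the authors made these intensities. The authors' deposited ratio tables, 1 per time, hold a log10 ratio per probe set. They come from Rosetta Resolver, per the file headers, which name no direction. The log2 form of that ratio is taken as CLA over LA because it correlated with the differences computed here (r of 0.65 to 0.812 across genes).

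The intensities of the 11 arrays were quantile normalised, set to 0 where negative, and taken as log2(value + 1.84), with the 25th percentile of the normalised values as offset. Of 45101 probe sets, 27025 passed a cut at the 40th percentile of the probe set means (7.59, over values floored at 0). The brightest probe set with 1 symbol in the platform annotation stood for a gene. Of the 45037 probe sets other than controls, 34945 had 1 symbol, 932 several and 9160 none. Of those with 1 symbol, 34741 matched the mouse gene table by Entrez ID. limma 3.58.1 in R 4.3.3 fitted 6 group means over all arrays (5 residual and 6.11 prior degrees of freedom) with an intensity trend and Benjamini-Hochberg adjustment over 12565 genes. A group is at background where none of its arrays exceeds 8.89, a level that 95% of the values of 27 unspiked bacterial controls do not pass. Scripts were tested on simulated data. Replicates correlated at r = 0.968 to 0.977 across genes, and their number limits the precision.

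The 8 members and all lists were chosen with earlier results of these data known. Named pathway genes are those past the threshold from 8 h to 12 h in either fatty acid, up to 4 per list by smallest p, and the 8 genes nearest to the members' mean course. Gart, Atic and Atf4 were named as well, after their values were seen. Alternatives covered scaling, offset, filter, probe sets, prior spread, arrays in the fit, replicate blocks, array brightness and each array left out.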

Additional observations from a re-analysis of the deposited data

Results flagged for a closer look

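Shmt1 stood out because its CLA minus LA difference changed between times. At 4 h the log2 difference was 5.2244, against -0.2362 at 8 h, and it stood at -0.997 at 12 h. The step from 4 h to 8 h differed between CLA and LA by -5.4606, past limma's threshold, and this rests on the single LA array of 4 h, whose value lies below 0. With that array at background, neither 5.2244 nor -5.4606 is a measured size: the 4 h difference was 2.3728 with an offset of 16, 6.0824 with an offset of 1, and 1.8409 with all passing probe sets averaged. The brightest probe set holds only a bound, at least 7.51-fold higher in CLA at 4 h than that 1 LA array set to background. The other 2 probe sets of Shmt1 that passed the filter did not repeat it, with 0.07 and 0.23 for CLA minus LA at 4 h. For the brightest probe set the authors' deposited log2 ratio at 4 h, taken as CLA over LA, was -0.09. That ratio comes from the authors' own processing and may include the LA array not analysed here. As the other probe sets did not repeat it, the bound is not a result for the gene.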

How the results depend on the processing

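The precision is limited by 1 or 2 arrays per group. With no scaling of the deposited intensities the median of the 8 genes was 0.3135 for LA 12 h minus 8 h (2 called), -0.3709 for CLA minus LA at 4 h, -0.014 at 12 h (0 called), 0.0353 for the difference between the steps to 12 h, 0.6506 for CLA 8 h minus 4 h and 0.435 for LA 8 h minus 4 h (2 called). With arrays brought to 1 common median it was 0.6623 for LA 12 h minus 8 h, 0.8544 for LA 8 h minus 4 h, and -0.0152, -0.2546 and -0.472 for CLA minus LA at 4 h, 8 h and 12 h. The authors' deposited tables gave -0.2436 at 12 h. For CLA 12 h minus 8 h, 0 genes were called under either of these scalings, cyclic loess, an offset of 1, no filter, all probe sets averaged, no intensity trend, or only the arrays compared. No filter called 3 in LA 12 h minus 8 h. Array brightness as a covariate called 0 at 12 h for CLA minus LA. At 4 h, 0 were called with only the arrays compared, and 0 of the 7 genes other than Shmt1, a choice made after seeing the data. No pairing by replicate number was seen (correlations of replicate differences between groups from -0.036 to 0.077). With 2 arrays per group, such correlations cannot exclude shared cultures or batches. The replicate block within each time called 3 for CLA 12 h minus 8 h, 2 for CLA minus LA at 4 h and 2 for LA 8 h minus 4 h, with a median of 0.4312 there. Leaving out 1 array at a time, the counts called ran from 3 to 5 for LA 12 h minus 8 h, 0 to 1 for CLA 12 h minus 8 h, 0 to 4 for CLA minus LA at 12 h, 2 to 4 for CLA 8 h minus 4 h and 2 to 5 for LA 8 h minus 4 h. The median for CLA 12 h minus 8 h ran from 0.2963 to 0.4195. Single genes that turned sign over 4 h to 8 h were Psat1 in CLA (0.0185 with the common median, 0.1406 unscaled) and Phgdh in LA (0.0582 with the common median). Shmt1 turned in CLA with probe sets averaged (-0.3453), with brightness as a covariate (-3e-04), with 1 array left out (-0.161 to 0.2243, the lowest without replicate 1 of CLA at 4 h) and on its other probe sets (-3.6274, -0.3427 and -0.7246), and in LA on 2 of them (-2.1616 and -0.2299). The cause was not tested.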
